A study of Daphnia magna with 30 samples.

Results

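The 196 transcripts described here were those whose abundance differed most among *Daphnia magna* kept under the same photoperiod. They were chosen from 11860 transcripts well above background on 15 or more of 30 arrays, out of 14338 transcripts on the array. For each of these the deposited log2 values were used to compute a pooled standard deviation (SD) among animals of a photoperiod, and the 200 largest were taken. Among the 200, transcripts annotated as cuticle, chitin, collagen, chorion, vitelline or kainate receptor and 3 named identifiers were set aside, which removed DM07114P2 on rank 37, DM08907P2 (chorion peroxidase) on rank 126, DM06742P2 on rank 143 and DM07224P1 (brain chitinase) on rank 159. The SD among animals was therefore the reason for the choice, and it is given as a description.

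The study reared females of a single genotype, descended from 1 individual, under 5 photoperiods from shortly after hatching, and sampled them as adults at an age of 21 d. The photoperiods, in hours of light and dark, were the extreme short day 4L:20D, the short day 8L:16D, the equinox 12L:12D, the control 16L:8D and the extreme long day 20L:4D, and only arrays of experimental trial 2 were analysed here. From each of the 3 exposure chambers of a photoperiod 2 animals, lettered A and B, were each hybridised to an array of their own, which gave 6 animals per photoperiod. The chambers of a photoperiod stood in 1 box under 1 lamp, so photoperiod and box cannot be told apart. RNA came from the whole animal, and the labels give neither the stage of the moult cycle nor the stage of the brood, so fewer cells of a type and less RNA per cell cannot be told apart.

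An adult *Daphnia* female moults and reproduces in a repeating cycle. Shortly after the old cuticle is shed, a clutch of eggs is laid into the brood pouch under the carapace, and the embryos develop there until the young are released before the next moult. Over that cycle the epidermis makes and breaks down chitin and cuticle protein, and the ovary provisions the next clutch with yolk and encloses it in egg envelopes.

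The 196 transcripts are largely without a known function. Only 14 of them, or 7.14%, were in the study's supplementary list of photoperiod-responsive transcripts, against 6.69% of the 11860 transcripts they were chosen from, and none of the 14 carried an informative name. The list was drawn up by the study partly on these samples, so it is not independent evidence on how its transcripts respond to photoperiod. The list gives the probe sequence of its members, and the ones that the later results turn on are shown here, 5′ to 3′. The capitals mark the 28-base run shared by DM04514P1 and DM07279P1, which were matched to the same predicted protein.
DM04514P1: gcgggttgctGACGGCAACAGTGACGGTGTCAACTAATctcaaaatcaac
DM07279P1: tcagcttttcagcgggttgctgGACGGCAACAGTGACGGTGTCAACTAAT
DM06604P3: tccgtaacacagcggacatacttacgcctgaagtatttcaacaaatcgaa
DM08434P2: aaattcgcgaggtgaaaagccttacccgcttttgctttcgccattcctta
DM07430P1: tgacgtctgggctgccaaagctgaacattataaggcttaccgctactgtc
DM05972P3: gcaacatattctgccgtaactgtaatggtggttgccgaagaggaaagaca
The overlapping pair also shared another run of 10 bases, and over the 30 animals their centred log2 values correlated at r = 0.995, with a median difference of 0.16 and a largest difference of 1.44. DM04514P1 and DM07279P1 were counted as 2 transcripts throughout but are not 2 independent measurements. DM06604P3, DM08434P2 and DM07430P1 are shown because they stood among the strongest photoperiod differences or the largest SDs, and DM05972P3 because it was the member that differed most between chambers. No 2 of the 196 shared a transcript number in their identifiers.

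The members differed among animals of a photoperiod with an SD of 2.81 to 5.81 log2 units and a median of 3.28, against a median of 0.33 over the 11860 transcripts. The smallest SD was 8.51 times the SD of the median transcript. The 5 members just inside the limit were DM12883P2 with an SD of 2.83, DM07638P3 and DM12115P1 with 2.82, and DM07834P1 and DM10680P4 with 2.81. The 5 transcripts just outside it were DM08027P3 and DM09374P1 with 2.80, DM00251P1 and DM10454P1 with 2.79, and DM06873P2 with 2.78, so the limit fell in a continuous run of values.

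Bright and dim transcripts were both among the members. Of the 196 members, 83 were well above background on all 30 arrays, and these had a median SD of 3.18 and a median span from lowest to highest animal of 10.34 log2 units, a 1292-fold range. The other members were well above background on 15 to 29 arrays, 41 of them on 15 to 20, and their lowest values lie at or near background and are not exact levels. No member was saturated on any array. For the 5 members with 2 spots on the array, the median SD between the spots of an array was 0.13, far below the difference among animals. Spots of an array share the RNA, the labelling and the slide, so this value does not include technical differences between arrays.

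Large differences among animals were found under every photoperiod. The SD exceeded 1 log2 unit in all 5 photoperiods for 161 members, in 4 for 34 members and in 3 or fewer for 1 member. The median SD of the members was 3.80 under 4L:20D, 3.89 under 8L:16D, 2.83 under 12L:12D, 2.28 under 16L:8D and 3.44 under 20L:4D. Over all eligible transcripts the same medians were 0.30, 0.38, 0.26, 0.26 and 0.34. The control photoperiod had the lowest median for the members.

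The members did not vary independently. After each transcript was centred on its photoperiod means, 43.1% of the 19110 pairs of members had r above 0.5 over the 30 animals and 23.3% had r below -0.5. The median absolute r was 0.654, against 0.225 among the pairs of every 10th eligible transcript. All of these correlations were computed over the same 30 arrays and share their scaling. Average linkage on 1 minus r, with the tree divided at 0.5, placed 193 members in 4 groups of 5 or more, of 111, 60, 13 and 9 transcripts. DM05972P3, DM07343P2 and DM12883P2 joined none. The division depended on how it was made. With Spearman's rho in place of r, 186 of the 193 stayed with the most members of their group, but only 3 groups of 5 or more formed. After centring by photoperiod and slide 184 did so, in 4 groups, and with the photoperiod means kept 176 did so, in 5 groups.

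**Figure D1:**
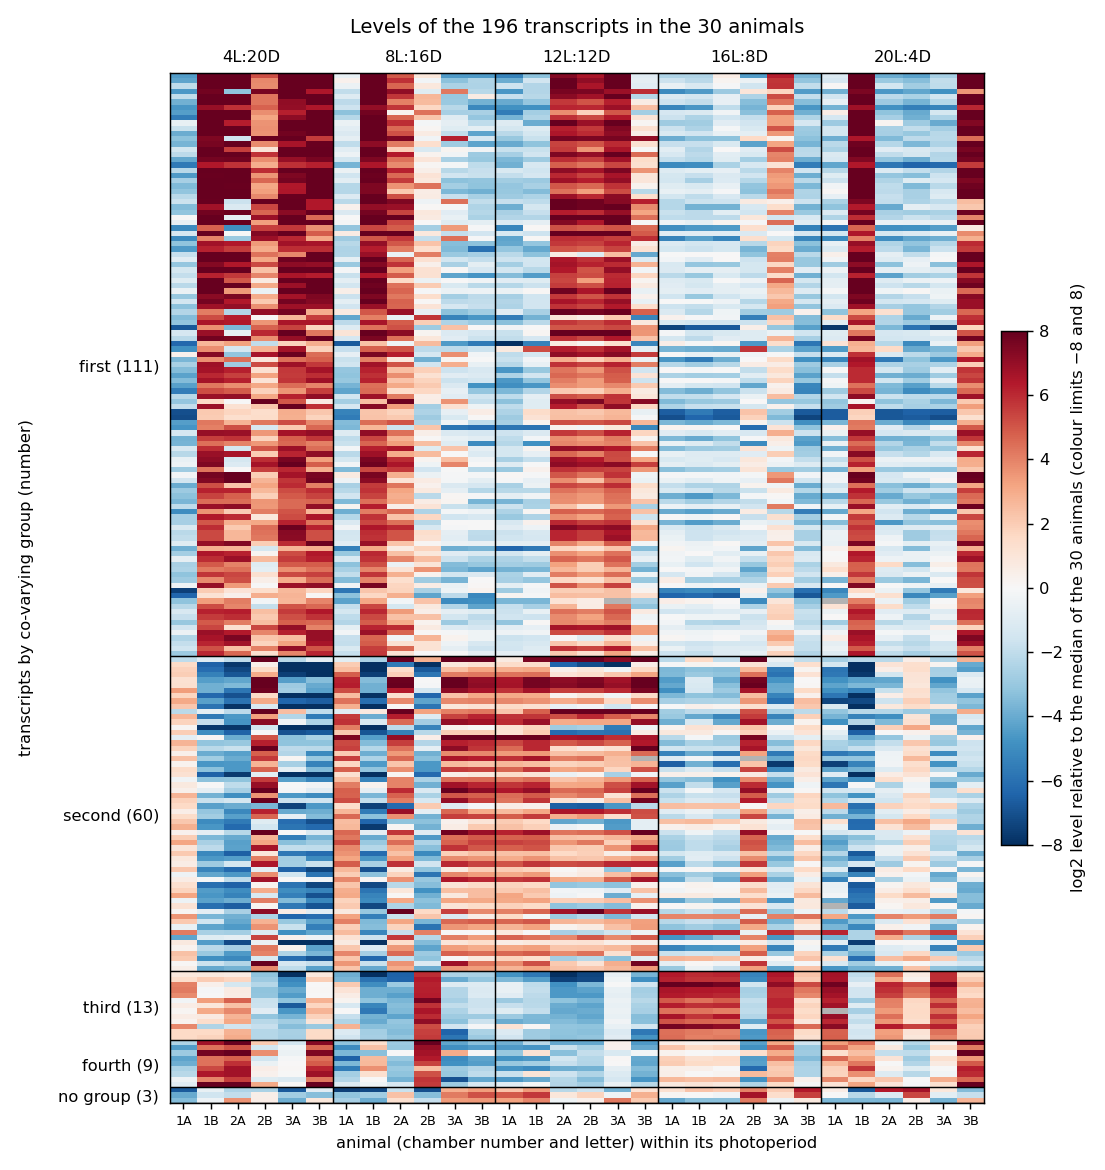
Log2 level of the 196 members (rows, ordered by group) in each of the 30 animals (columns, ordered by photoperiod, chamber and animal letter), relative to the median of the transcript over all animals. Blocks of the same colour within a photoperiod show members of a group that were high or low in the same animals, and neighbouring columns of 1 chamber often differ in colour.

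The first group held 111 members, among them 14 of the 15 with the largest SD. These were DM02749P1, DM02979P2, DM02885P1, DM07124P3, DM08801P2, DM02680P2, DM02044P4, DM06709P1, DM09387P2, DM02996P2, DM06988P1, DM06426P2, DM07010P1 and DM12525P1. The mean r within the group was 0.83. DM02749P1 had the largest SD of all transcripts, 5.81. Relative to its median over the 30 animals its log2 level ran from -4.45 through a median of 9.57 to 10.73 under 4L:20D, from -4.56 through 0.16 to 9.81 under 8L:16D, from -5.35 through 2.79 to 8.03 under 12L:12D, from -4.45 through -2.44 to 6.30 under 16L:8D and from -4.29 through -1.90 to 10.88 under 20L:4D. The photoperiods overlapped over almost their whole range, and the 8 arrays not well above background were all at the low end.

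DM07501P2, DM07126P3 and DM02500P3 had the highest mean correlation with the rest of the first group. DM07501P2 was well above background on all 30 arrays. In 4L:20D its level was -2.16, 7.73, 7.59, 3.71, 6.95 and 7.95 in animals 1A, 1B, 2A, 2B, 3A and 3B, so 1A was low and the others high. In 16L:8D the same animals in order had -1.41, -2.11, -0.88, -1.05, 2.72 and -2.67, so no control animal reached the level of the high 4L:20D animals. In 20L:4D animals 1B and 3B had 7.58 and 7.73, and the other 4 lay between -1.48 and -1.10.

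Averaged over its members, the first group had no value between 1.55 and 3.25, but the animals did not fall into 2 clean sets. Below that gap, animals 2B of 8L:16D, 3B of 12L:12D and 3A of 16L:8D were intermediate, at 0.48, 0.92 and 1.55. The next lower animal, 3A of 8L:16D, stood at -1.02. The intermediate animals lay under the midpoint used below and were not counted as high. The mean lay above the midpoint of its range in 12 of 30 animals, 5 under 4L:20D, 2 under 8L:16D, 3 under 12L:12D, none under 16L:8D and 2 under 20L:4D. Its lowest animal stood at -2.91 and its highest at 6.48.

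The second group held 60 members with a mean r of 0.70. DM07038P1, DM06458P2 and DM02589P3 had the highest mean correlation with the rest. It also held the overlapping pair DM04514P1 and DM07279P1, as well as DM06604P3, DM14525P1, DM06915P3 and DM08434P2. DM06604P3 was well above background on all 30 arrays. Its level was 0.62, -2.85, -1.39, 6.44, -2.72 and -1.80 under 4L:20D animals 1A to 3B, so a single animal, 2B, was high. In 8L:16D the 6 animals had 4.82, -2.60, 5.85, -1.56, 6.04 and 5.44. In 12L:12D all 6 were high and lay between 5.06 and 6.07. In 16L:8D they had -4.33, -2.14, -3.42, 5.67, -3.04 and 0.08, again with a single high animal, and under 20L:4D none exceeded 0.19.

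DM08434P2 had the largest SD of the second group, but was well above background on only 15 arrays. Its level ran from 0.74 to 10.90 under 12L:12D and from -2.54 to 11.09 under 8L:16D. It exceeded 9 in animal 2B of 4L:20D, at 9.28, and in animal 2B of 16L:8D, at 9.57, the same animals in which DM06604P3 was high.

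The second group was high in 15 animals, 2 under 4L:20D, 4 under 8L:16D, all 6 under 12L:12D, 2 under 16L:8D and 1 under 20L:4D. Its mean ran from -4.65 to 3.99. The group was less uniform than the first, with a lowest r between its members of -0.45. Of its 60 members, 12 had r below -0.8 with the mean of the first group and 30 had r above -0.5 with it. DM11222P3, DM09211P1 and DM08034P3 correlated with the mean of the third group at 0.77, 0.66 and 0.63. DM11222P3 was at 5.99 or above in animals 1A, 1B and 2A of 16L:8D but at -0.51 in animal 2B, where most of the second group was high.

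The third group held 13 members with a mean r of 0.89, led by DM06550P3, DM08483P1 and DM06597P2, and also held DM07430P1 and DM07234P2. DM06550P3 was well above background on 29 arrays. In 16L:8D its level was 6.16, 5.78, 5.80, -5.01, 6.22 and 2.00 in animals 1A to 3B. In 20L:4D it was 6.59, -1.69, 3.04, 0.37, 5.90 and 2.05. In 8L:16D animal 2B had 6.32 and the other 5 lay between -6.43 and -3.15, and under 12L:12D all 6 lay between -7.47 and -0.37. Its group mean lay above the midpoint of its range, 0.99, in 5 of 6 animals of 16L:8D and 5 of 6 of 20L:4D, against 4 of 6 under 4L:20D, 1 of 6 under 8L:16D and 0 of 6 under 12L:12D. The 4 animals of 4L:20D stood close to that midpoint, at 1.02, 1.03, 1.75 and 1.77, whereas 4 of the control animals stood between 5.60 and 5.93. Its mean ran from -4.45 to 6.44.

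The fourth group held 9 members with a mean r of 0.81, led by DM12797P3, DM08724P1 and DM08755P3. DM12797P3 was well above background on all 30 arrays. It reached 6.70, 8.31 and 7.33 in animals 1B, 2A and 3B of 4L:20D, 8.81 in animal 2B of 8L:16D and 7.59 in animal 3B of 20L:4D. In 12L:12D it lay between -4.54 and 0.43. The mean of the group ran from -3.73 to 6.91 and was high in 8 animals, 3 under 4L:20D, 1 under 8L:16D, none under 12L:12D, 1 under 16L:8D and 3 under 20L:4D.

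**Figure D2:**
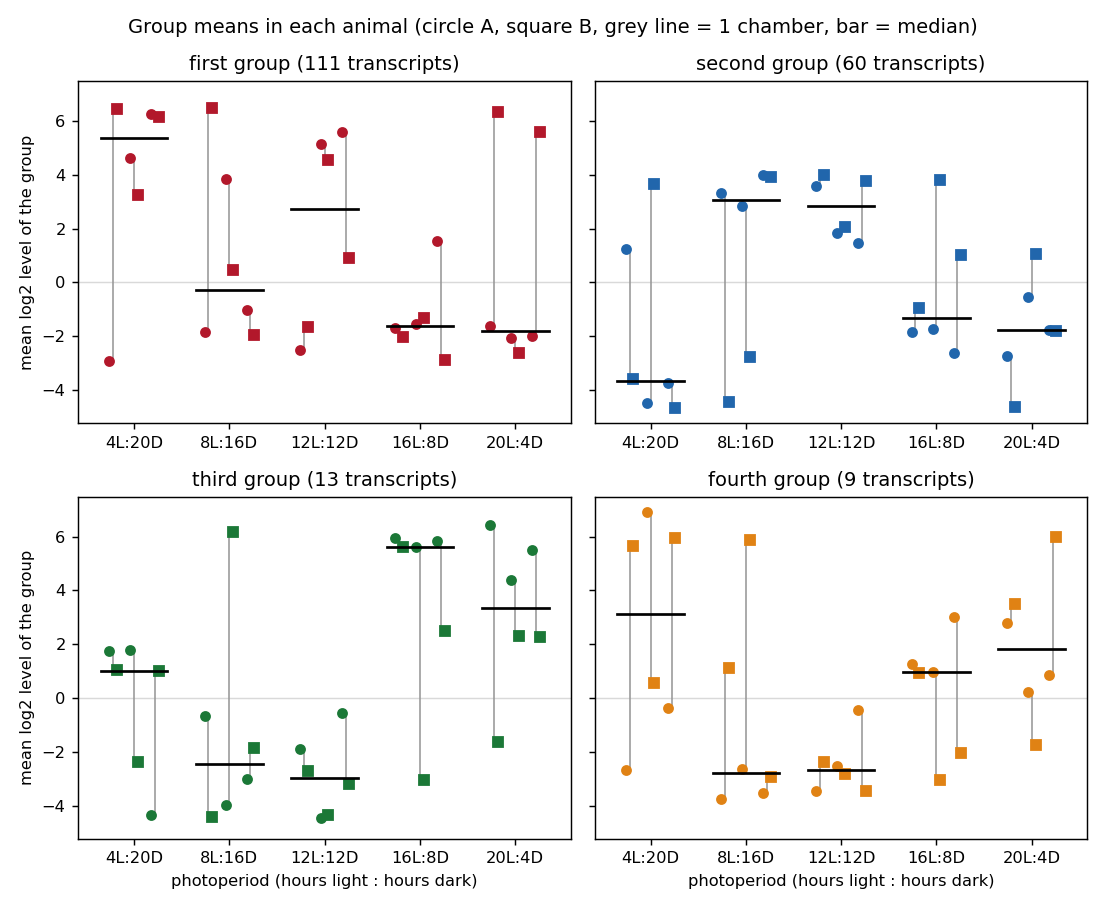
Mean log2 level of the members of each group in each of the 30 animals, relative to the median of each transcript over all animals, with the animals on the horizontal axis arranged by photoperiod. In 12L:12D all 6 animals were above the midpoint for the second group and none for the third and the fourth groups.

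The groups moved together or in opposition from animal to animal. With photoperiod means removed, the first and the second groups ran in opposition (r = -0.60, rho = -0.62, and r = -0.54 without the 2 animals farthest from the median, n = 30 animals). The second and the fourth groups were more strongly opposed (r = -0.77, rho = -0.81, and -0.82 without the 2 animals). Counts of high animals keep the photoperiod means, so they also carry differences between photoperiods. No animal was high in both the second and the fourth group, while 15 were high in the second group alone, 8 in the fourth alone and 7 in neither. The 15 include all 6 animals of 12L:12D. With photoperiod means removed, 98.5% of the pairs formed by a member of the second and a member of the fourth group had a negative r. Of the pairs between the first and the second groups 90.9% did.

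The first and the fourth groups ran together (r = 0.55, rho = 0.56, and 0.47 without the 2 animals). The third and the fourth did so less closely (r = 0.48, rho = 0.43, and 0.23 without the 2 animals). With photoperiod means kept, 7 of the 8 animals high in the fourth group also lay above the midpoint in the third, 3 of them close to it (animals 1B, 2A and 3B of 4L:20D, at 1.03, 1.77 and 1.02). The first and the third groups (r = -0.33, rho = -0.28, and -0.22) and the second and the third groups (r = -0.30, rho = -0.29, and -0.42) were weakly opposed. Opposition was not exclusive. In 5 animals the first and the second groups were both high with photoperiod means kept. Animals 2A and 2B of 12L:12D, for example, had 5.13 and 4.57 for the mean of the first group and 1.83 and 2.08 for that of the second.

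The closest pairs of single members were DM06691P2 with DM07660P2 in the first group, and DM06904P2 with DM05046P1 and DM01392P4 with DM08101P1 in the second, each at r = 0.999. The most opposed were DM06914P2 with DM05838P1 at -0.97, DM13223P1 with DM08101P1 at -0.96 and DM09387P2 with DM05838P1 at -0.96, each a member of the first group with a member of the second. These 6 pairs were named because their r was the highest or the lowest.

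**Figure D3:**
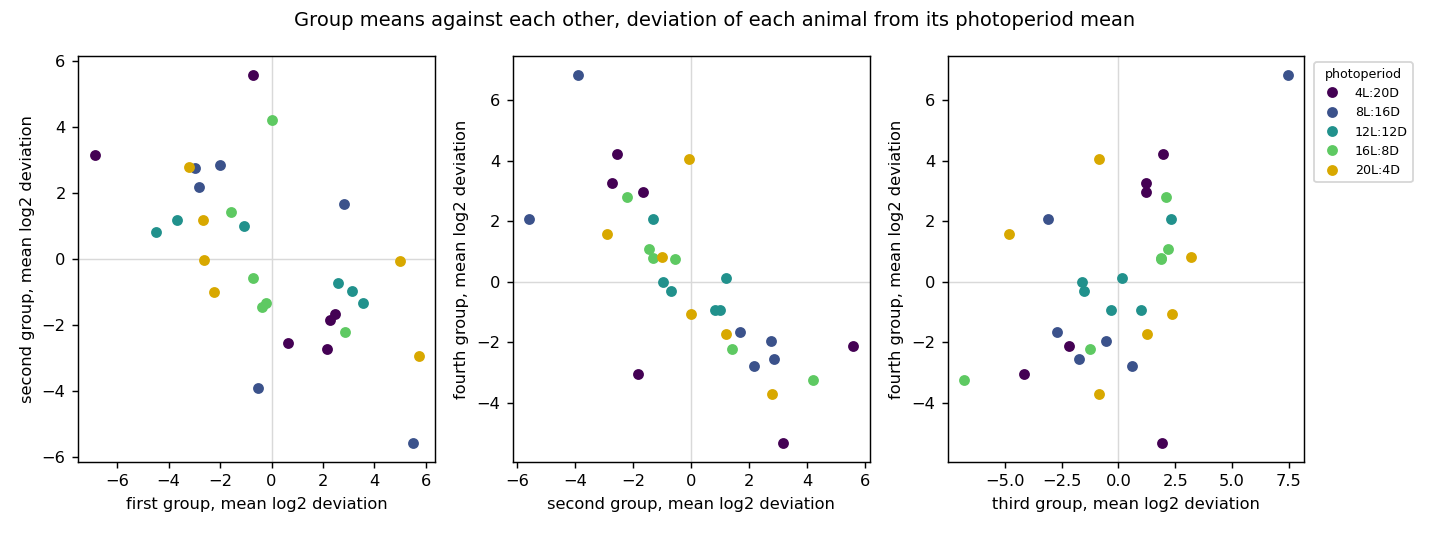
Mean log2 deviation of each of the 30 animals from its photoperiod mean, for the first against the second group (left), the second against the fourth (middle) and the third against the fourth (right), with 1 point per animal and 1 colour per photoperiod. The points of the middle panel fall along a descending band (r = -0.77), and those of the right panel along a loose ascending one (r = 0.48).

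Animals of the same chamber differed about as much as animals of different chambers. The median absolute difference over the members was 2.83 log2 units between animals A and B of a chamber (15 chambers) and 2.87 between animals of different chambers of a photoperiod (60 pairs). In 5 chambers the animals differed by a median of less than 1 log2 unit, the lowest being 0.41 in chamber 2 of 12L:12D and 0.43 in chamber 1 of 16L:8D. In 7 chambers they differed by more than 4, up to 7.12 in chamber 1 of 20L:4D, 7.85 in chamber 1 of 4L:20D and 8.06 in chamber 1 of 8L:16D. In this last chamber 175 of the 196 members differed by more than 4 log2 units between animals that had shared the water, the light and the food, animal 1A with a first group mean of -1.84 and 1B with 6.48. The first group was high in a single animal of 6 chambers, in both animals of 3 and in neither of 6.

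In limma's F test for differences between chambers of a photoperiod, 1 member, or 0.51%, passed an unadjusted p of 0.01, against 2.05% of all 14338 transcripts, and none passed an adjusted p of 0.05, against a background of 0%. At an unadjusted p of 0.05, 1 member passed (0.510%) and 9.51% of all transcripts did. Since the members were chosen for their spread within photoperiods, which includes the spread within chambers, nothing is read from this count. The single member was DM05972P3, with an adjusted p of 0.472 in limma's F test. Its level was -7.45 and -7.23 in chamber 1 of 8L:16D and 2.89 and 3.35 in chamber 3, and 6.34 and 6.63 in chamber 2 of 20L:4D against 0.60 and -6.81 in chamber 1. DM12567P1 (adjusted p = 0.535) and DM04001P1 (adjusted p = 0.54) came next and did not pass.

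The pattern of the members was shared by many transcripts that were not chosen. Principal components were taken over the 11572 eligible transcripts with complete values outside the 200, photoperiod-centred. The values were not standardised, so the transcripts with the largest SD among these weigh most on the axes. The direction of an axis is arbitrary. The first axis held 37.5% of their variance, the second 20.3% and the third 7.13%. These axes do not contain the members, although they rest on the same arrays. The median member had 88.1% of its photoperiod-centred variance on the first and the second axes, against 27.5% for the median of the other transcripts, and 145 of the 192 members with complete values had 80% or more. The first group followed the first axis (r = 0.96, and -0.19 with the second). The third group followed the second axis (r = 0.90, and -0.21 with the first). The second group lay on both (r = -0.76 and -0.59), as did the fourth in the opposite sense (r = 0.67 and 0.56). These values are a description over 30 animals.

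**Figure D4:**
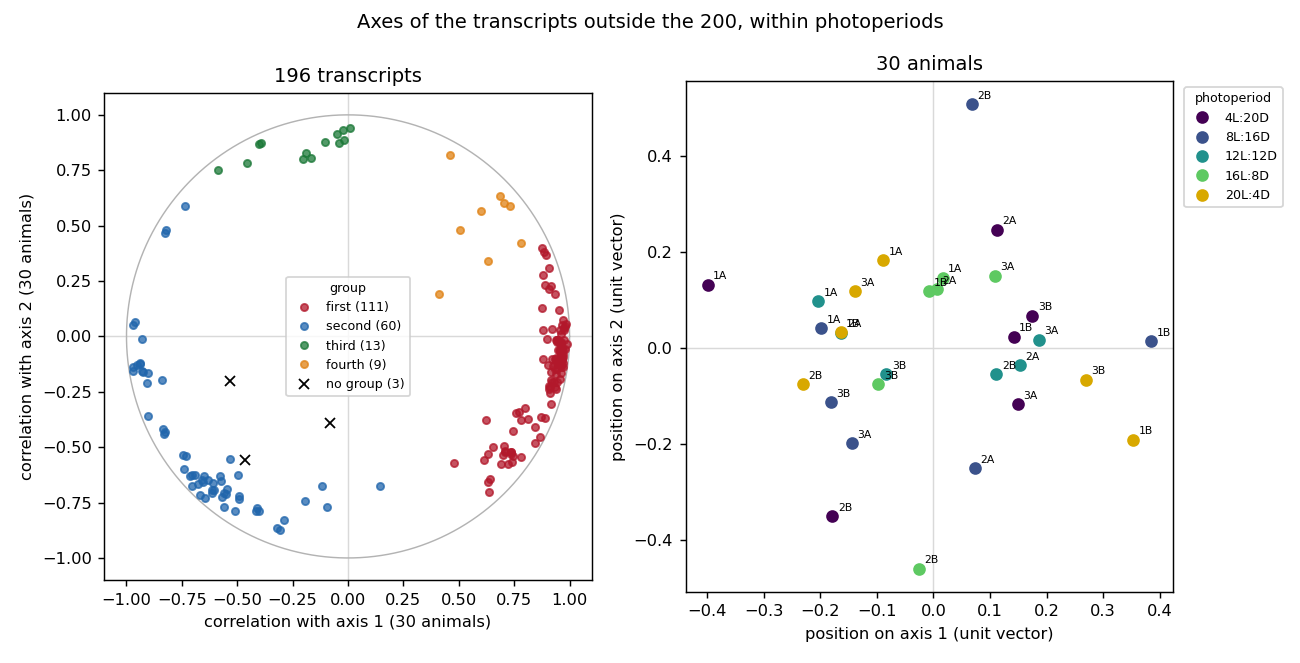
Left, correlation of each of the 196 members with the first (horizontal) and second (vertical) axis of the 11572 transcripts outside the 200, coloured by group, with a circle at a combined share of all variance. Right, position of the 30 animals on the same axes (unit vectors), coloured by photoperiod and marked with chamber and letter. The first group lies at the right of the circle, the third at the top, the fourth between them and the second mostly at the lower left.

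Technical measures were set beside the group means. The E1A spike-in probes detect transcripts added in a fixed amount to each labelling, and their mean level correlated with the group means at 0.19 for the first group, -0.31 for the second, -0.17 for the third and -0.01 for the fourth. Correlations with the number of transcripts well above background on the array lay between -0.16 and 0.05. The arrays came from 9 slides of 1 to 5 arrays, and slides accounted for 52.2%, 36.5%, 47.6% and 37.0% of the photoperiod-centred variance of the first to the fourth group. Chambers accounted for 41.5%, 35.6%, 25.2% and 25.7%. Means of so few arrays take up a share of any variance, and the share to be had without an effect of slide or chamber was not computed. Animal letter accounted for 3.78%, 0.05%, 6.49% and 3.18%. The part of the slide in the grouping was not tested beyond the centring on slide given above.

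Transcripts with an informative name in the study's list give a point of reference for each group. There were 470 of them outside the members, and those most like a group mean over the 30 animals, photoperiod-centred, are given with r. Most like the first group were a lysosomal alpha-glucosidase (DM02442P2, r = 0.92), an enzyme that breaks down glycogen, pyruvate kinase (DM02740P2, 0.89), the last enzyme of glycolysis, another lysosomal alpha-glucosidase (DM09425P2, 0.80) and 6-phosphogluconate dehydrogenase (DM01085P1, 0.77) of the pentose phosphate pathway. Their changes were far smaller than those of the members, with SDs of 0.37, 0.28, 0.33 and 0.44. Most opposed were an Obg-like ATPase (DM00217P4, -0.92), a chitinase domain-containing protein (DM12429P1, -0.89) and a 26S proteasome regulatory subunit (DM01703P3, -0.87).

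Most like the second group were a Clip-domain serine protease (DM10610P1, r = 0.94), cuticular protein analogous to peritrophins 1-G (DM12209P2, 0.94), a chitin-binding protein, and brain chitinase (DM07224P1, 0.93), which cleaves chitin. Brain chitinase was itself among the 200 and was set aside by its name. Ornithine aminotransferase (DM01642P3, 0.90), Spatzle 6 (DM05187P3, 0.87), a relative of the Toll ligand of *Drosophila*, a putative Derailed 2 (DM03359P1, 0.86), an actin (DM01817P1, 0.83) and a collagen IV chain (DM05282P3, 0.81) followed. The list of moult-related names held 11 transcripts, of which 7 had r above 0.5 and 1 below -0.5 with the second group, against 11.2% and 9.74% of the other 11572 transcripts. Of 7 transcripts with an extracellular matrix name, 6 had r above 0.5 with the second group, and 6 had r below -0.5 with the fourth, against 13.3% of the other transcripts. These are not 7 separate names. DM00434P4, DM05282P3, DM05719P1 and DM12010P3 all carry the name collagen IV alpha 1 chain-like protein. A laminin subunit (DM05084P2) followed neither group, at r = 0.03 with each. The lists are not separate, since DM12209P2 is in both. They are small and come from transcripts that the study selected for responding to photoperiod. The 11 moult-related transcripts had SDs of 0.33 to 2.96, against a median of 0.33 over the eligible transcripts. The other transcripts are therefore not a background of like SD, and nothing is read from the excess.

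Most like the third group were cathepsin O (DM04463P1, r = 0.94), a lysosomal protease, and a group XV phospholipase A2 (DM03155P1, 0.93). Of 5 transcripts with an egg shell name, 4 had r above 0.5 with the third group and none below -0.5, against 10.8% and 5.31% of the other transcripts. None of the 5 had r above 0.5 with another group. The 5 may not be separate genes, since DM03869P1, DM03972P1 and DM08907P2 are all named for chorion peroxidase, the latter 2 identically. A vitelline membrane protein (DM11500P2) passed only just, at 0.51. The 5 had SDs of 0.42 to 3.13, so the other transcripts are not a background of like SD. A putative cuticle protein (DM08522P1, -0.81) and argininosuccinate synthase (DM00989P1, -0.79) were most opposed. Moult-related names went both ways with the third group, 2 of 11 with r above 0.5 and 4 below -0.5. The 2 were another putative cuticle protein (DM12885P2, 0.71) and a putative chitin deacetylase (DM03120P2, 0.61). Most like the fourth group were a chymase (DM07027P3, 0.76), a serine protease, a NipSnapA protein (DM11870P2, 0.74), the lysosomal alpha-glucosidase already given for the first group (DM02442P2, 0.73) and glutamine synthetase (DM01623P1, 0.72). Most opposed were a putative Notch receptor (DM03056P3, -0.77), a pseudouridine-metabolizing protein (DM06168P1, -0.76) and the Clip-domain protease (DM10610P1, -0.75). Neither of the 2 yolk transcripts, which share a name, had r beyond 0.5 in either direction with any group.

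To set each member beside these names, a moult score and an egg shell score were formed. They were the first components of the 11 moult-related and the 5 egg shell transcripts, and held 47.0% and 56.3% of their variance. Both sets hold transcripts that share a name and may not be separate genes. Not all the moult-related transcripts followed their score. DM06037P2 correlated with it at -0.61, DM12885P2 at -0.28, DM13721P2 at -0.14, DM03120P2 at -0.001 and DM12429P1 at 0.18. The others correlated with it at 0.77 to 0.95, so the score stands for only part of the moult-related names. The transcript closest to each score had itself passed the SD rule and was set aside by its name. These were DM07224P1 for the moult score (rank 159, r = 0.95) and DM08907P2 for the egg shell score (rank 126, r = 0.93). Regression on the scores therefore sets members partly against transcripts picked out by the same rule. Each member was then regressed on each score within photoperiods in limma, with Benjamini-Hochberg adjustment over all transcripts. At an adjusted p of 0.05, 78 members (39.8%) followed the moult score, against a background of 10.6%. In the same direction went 54, against 5.78% of all transcripts, and in the opposite direction 24, against 4.86%. The egg shell score was followed by 47 members (24%), against 8.09%, with 15 in the same direction, against 5.2%, and 32 in the opposite direction, against 2.88%. The slopes use the spread for which the members were chosen, so nothing is read from the excess over the background.

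The split by group is a description too, since the groups were formed on the same photoperiod-centred values and members of a group follow a score together. Of the 54 members that went with the moult score, 52 belonged to the second group and 2 to none, and the 24 that went against it were 8 of the first, 10 of the third and 6 of the fourth. All 13 members of the third group went with the egg shell score, and the 32 that went against it were 4 of the first, 26 of the second and 2 in no group. For DM06604P3 the slope was 2.58 ± 0.19 (SE) log2 units per SD of the moult score. For DM07430P1 it was 2.37 ± 0.36 per SD of the egg shell score and -1.31 ± 0.53 for the moult score. Chamber 2 of 16L:8D weighed on both: without it 71 members in place of 24 went against the moult score, and 3 in place of 32 went against the egg shell score. The members against the egg shell score numbered 14 and 17 without chambers 2 and 3 of 8L:16D and 19 without chamber 1 of 16L:8D, while those in its direction numbered 13 to 17 whichever chamber was left out.

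Photoperiod was the comparison for which the study was designed. In limma's F test 47 members (24%) responded to photoperiod at an unadjusted p of 0.01, against 11.4% of all 14338 transcripts, and 27 (13.8%) at an adjusted p of 0.05, against 5.57%. The rule set the error term of this test but not the differences between photoperiods. The responding members were 31 of the 60 in the second group, 11 of the 13 in the third, 3 of the 9 in the fourth and 2 of the 111 in the first, and with adjustment 17, 8, 2 and 0. In the first group 15 members had an unadjusted p under 0.05 in the same limma test. Members of a group are not independent, since they were high and low in the same animals. The number with an adjusted p under 0.05 dropped to 6 with slide as a block, to 11 with chamber as a random block, and to 0 when chamber 2 or chamber 3 of 12L:12D was left out. It was 3 and 7 without chambers 3 and 1 of 16L:8D, 15 and 10 without chambers 1 and 3 of 20L:4D, and 17 and 42 without chambers 3 and 2 of 4L:20D. Of the 14 members in the study's list, 13 responded, and of the other 182 members 34 did.

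Relative to the 16L:8D control, a responding transcript was called in a photoperiod at an unadjusted p of 0.05 and a change of at least 1.5-fold. The median standard error was 1.79 log2 units for a member and 0.21 over all transcripts. The fold limit could therefore remove ordinary transcripts but hardly a member that passed the p limit. Nothing is read from the excess of these shares over the background. The most calls fell under 12L:12D, with 45 members (23%), against 6.29% of all transcripts, of which 31 were higher, against 2.73%, and 14 lower, against 3.56%. Of the 31, 29 were in the second group, and of the 14 lower members 11 were in the third. In 8L:16D, 33 members (16.8%) were called, against 4.14%, 20 higher, against 1.78%, and 13 lower, against 2.36%. With the spike-in as a covariate, the 20 higher members under 8L:16D became 1, and without chamber 3 of 8L:16D they likewise became 1. In 4L:20D, 13 members (6.63%) were called, against 4.59%, 4 higher, against 1.53%, and 9 lower, against 3.05%. With slide as a block these became 16 higher and 7 lower, and with normexp background correction and quantile normalisation 1 higher and 10 lower.

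In 20L:4D no member was called, against 0.809% of all transcripts. In limma's test 1 member, DM03658P3, differed from the control under 20L:4D at an unadjusted p under 0.05 and none at an adjusted p of 0.05. The median standard error of a member's log2 fold change was 1.79, against 0.21 over all transcripts, so changes of a few log2 units were not detectable for most members. The median log2 fold change of the members was 4.15 under 4L:20D, 2.13 under 8L:16D, 3.33 under 12L:12D and 1.47 under 20L:4D, while the medians over all transcripts lay between -0.06 and -0.02. The medians of the members pool opposed groups and rest largely on the first group, of whose 111 members 2 responded. Among the 13 members called under 4L:20D, 9 were lower.

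**Figure D5:**
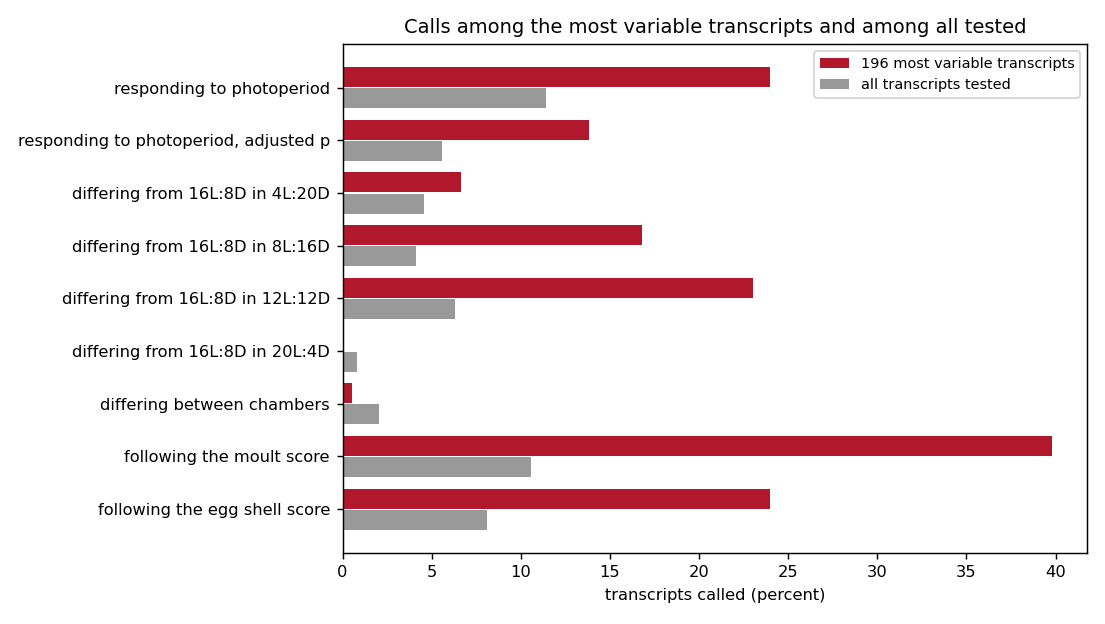
Percent of the 196 members and of all 14338 transcripts called in each test. Among the comparisons with 16L:8D the members exceed the background most under 12L:12D (23% against 6.29%), and they lie below it under 20L:4D and between chambers. The fold limit of these comparisons weighs more on the background than on the members, so nothing is read from the excess.

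The 5 members with the smallest p for photoperiod all belonged to the second group, and all were higher under 12L:12D. DM14525P1 had an adjusted p of 0.0137 in limma's F test and a log2 fold change of 6.98 ± 1.64 (SE) under 12L:12D relative to the control. DM04514P1 (adjusted p = 0.0156) changed by 8.44 ± 1.95 and its overlapping partner DM07279P1 (adjusted p = 0.0178) by 8.23 ± 1.94. DM06604P3 (adjusted p = 0.017) changed by 6.76 ± 1.42, and DM06915P3 had an adjusted p of 0.02. For DM04514P1 the 6 animals of 12L:12D lay between 6.59 and 8.51, and 5 of the 6 control animals lay at or below 0.05, while control animal 2B had 7.70. The groups overlapped through this animal alone. In 4L:20D the same transcript ran from -4.42 to 8.78, and its log2 fold change there was 0.04 ± 1.95.

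Members of the third group were lower than in the control, 11 of 13 called under 12L:12D, 11 under 8L:16D and 7 under 4L:20D. DM06550P3 had a log2 fold change of -8.16 ± 1.90 under 12L:12D (adjusted p = 0.0188) and of -6.29 ± 1.90 under 8L:16D (adjusted p = 0.131). DM07430P1 fell by 7.88 ± 1.76 under 12L:12D (adjusted p = 0.0166), by 6.05 ± 1.76 under 8L:16D (adjusted p = 0.122) and by 6.45 ± 1.76 under 4L:20D (adjusted p = 0.0368). DM07234P2 fell by 6.52 ± 1.57 under 12L:12D (adjusted p = 0.02) and by 6.72 ± 1.57 under 4L:20D (adjusted p = 0.0213). Control animal 2B was again apart, at -5.01 for DM06550P3 when the other control animals had 2.00 to 6.22. In that animal the second group mean was 3.82 and the third group mean -3.05, whereas its chamber-mate 2A had -1.71 and 5.62.

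Few members of the first group were called. Its median level was 5.38 under 4L:20D and -1.63 in the control, yet only DM09308P2 and DM07351P3 of its 111 members responded. DM07351P3 changed by 5.99 ± 1.71 under 4L:20D (adjusted p = 0.0418) and by 5.81 ± 1.71 under 12L:12D (adjusted p = 0.0424), and its F test had an adjusted p of 0.0805. In the fourth group DM06521P1 was higher under 4L:20D by 3.66 ± 1.55 (adjusted p = 0.133) and DM04828P3 by 4.31 ± 1.55 (adjusted p = 0.0837), and DM12812P1 was lower under 12L:12D, with a log2 fold change of -4.55 ± 1.52 (adjusted p = 0.069). In the F test for photoperiod DM06521P1 and DM12812P1 had adjusted p values of 0.0476 and 0.0487 and passed, and DM04828P3, with 0.0731, did not. None of these 3 contrasts with the control passed an adjusted p of 0.05.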

How the data were processed

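Single-colour Agilent arrays of 30 single animals were used. The authors extracted spot intensity with Feature Extraction (version 10.7.3.1 per the file headers, 9.5.1 in the submitters' processing notes), and deposited a processed signal, a linear intensity with background subtracted. The authors also deposited log2 values, with every array scaled to its 75th percentile and every transcript centred on its median, on which the members were chosen. Each array held 15744 spots. The 536 control spots and 188 outlier spots of 456240 were left out and spots of a probe averaged. The log2 of the processed signal minus the 75th percentile of the array was used for all tests, and correlated with the deposited log2 values at 0.9997 or more. Printed levels are relative to the median of the transcript over the 30 animals. Between 10568 and 12900 transcripts per array were well above background. Precision was limited by the number of arrays.

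Limma 3.58.1 in R 4.3.3 (statmod 1.5.0) was fitted to all 14338 transcripts with photoperiod, animal letter and their interaction (20 residual and 1.91 prior degrees of freedom), with Benjamini-Hochberg adjustment over all transcripts. The contrast averaged both letters. Chambers were tested in a separate fit with 15 residual degrees of freedom. Replicates were single animals, 6 per photoperiod, which shared chambers and a box. The fits were tested on simulated data with independent noise of a smaller SD than that of the members. That test therefore does not cover transcripts as variable and as correlated as the members. Python 3.11.15, numpy 2.4.6, pandas 2.3.3, scipy 1.17.1 and matplotlib 3.10.9 served for groups, components and figures.

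The members, lists and groups were chosen with earlier results of these data known. Transcripts named were the 15 largest SDs, members in the study's list, the 3 most central of each group, the 3 closest and 3 most opposed pairs, the 5 smallest p for photoperiod and 3 for chambers, and 5 on each side of the limit. Others named for their calls or as most like a group were chosen after their values were seen. Gene names come from the study's list, and the other 182 members are given by identifier. Alternatives were another normalisation, background correction, floor, filter, the deposited values, slide, chamber or replicate as blocks, no letter, a spike-in covariate, and each chamber left out.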

Additional observations from a re-analysis of the deposited data

Results flagged for a closer look

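Of 195 sets of 6 animals (the 4 group means in each photoperiod and 35 named transcripts), 32 had 1 animal whose gap to the nearest of the others, divided by the range, exceeded Dixon's critical value for 6 samples. That was 16.4%, where chance flags about 1 in 20 groups. Nothing is read from the excess, since the members were chosen for a large SD within photoperiods, which a single animal standing apart raises, and members of a group share their animals.

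Animal 1A of 4L:20D stood apart from the other 5 animals of its photoperiod, at -2.91 for the first group mean. It was also apart for DM02749P1 (-4.45), DM02044P4 (-4.69), DM12525P1 (-3.71), DM07126P3 (-3.28), DM12567P1 (-4.36) and DM04001P1 (-1.88). In 16L:8D animal 3A was the highest, at 1.55 for the first group mean. The same held for DM02885P1 (5.79), DM08801P2 (5.21), DM02680P2 (4.33), DM09387P2 (3.31), DM02996P2 (3.30), DM06988P1 (5.03), DM06426P2 (3.45), DM07501P2 (2.72), DM07126P3 (3.29) and DM02500P3 (2.91).

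In the second group, animal 2B of 4L:20D was the only high animal for DM08434P2 (9.28), DM06604P3 (6.44) and DM06915P3 (6.96). Animal 2B of 16L:8D was apart for DM08434P2 (9.57), DM14525P1 (7.61) and DM07279P1 (7.93). In 12L:12D animal 1A was low for DM08434P2 (0.74) and animal 3A was low for DM07038P1 (1.15). In the third group, animal 2B of 8L:16D was the only high animal of its photoperiod for the group mean (6.17) and for DM06550P3 (6.32), DM08483P1 (5.98) and DM06597P2 (5.79). Animal 3A of 12L:12D was the highest of its photoperiod for the fourth group mean (-0.44) and for DM08483P1 (-0.56). What set these animals apart was not tested.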

How the results depend on the processing

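Of 103 recomputed counts under another setting, 92 stayed within 1.5 times the reported one. With slide as a block, 31 members responded to photoperiod, 6 with adjusted p, and 23 were called under 4L:20D, 29 under 12L:12D and 10 under 20L:4D. With chamber as a random block, 11 responded with adjusted p. With the spike-in as a covariate, 15 were called under 8L:16D and 4 under 20L:4D, and 0 differed between chambers. Without animal letter 1 was called under 20L:4D. Only 83 members stayed among the 200 most variable when all arrays had to be well above background. Background correction with normexp kept 146 of the 196, quantile normalisation 192 and raising dim signals to the floor 179. With the replicate block (chamber number) 44 members responded, 22 with adjusted p, and calls numbered 12 under 4L:20D, 34 under 8L:16D, 43 at the equinox and 0 under the longest day, which moved no count beyond 1.5 times. Chamber numbers did not pair the samples (median r of same-numbered chambers 0.07, 13 of 30 over 0.1).

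Leaving out each chamber kept 129 of 165 counts within 1.5 times. Responding members ranged from 26 (without chamber 2 of 12L:12D, and 27 without chamber 3) to 59, with adjusted p from 0 (without chamber 2 or 3 of 12L:12D) to 42 (without chamber 2 of 4L:20D). Calls ranged from 6 (without chamber 1 of 16L:8D) to 33 (without chamber 1 of 12L:12D) under 4L:20D, from 11 (without chamber 1 of 16L:8D, 12 without chamber 3 of 8L:16D, 18 without chamber 3 of 16L:8D and 20 without chamber 2 or 3 of 12L:12D) to 41 under 8L:16D, from 26 (without chamber 2 or 3 of 12L:12D) to 52 under 12L:12D, and from 0 to 5 (without chamber 2 of 20L:4D) under 20L:4D. Between chambers they ranged from 0 to 1, and from 0 to 0 with adjusted p. Members following the moult score ranged from 64 to 128 (without chamber 2 of 16L:8D), and the egg shell score from 16 (without the same chamber, and 28 without chamber 2 of 8L:16D) to 57. Members kept among the 200 ranged from 176 to 192. The causes were not tested. Low values of members near background are not exact levels, which limits their fold changes, and 6 animals per photoperiod leave wide errors.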
